A study of Mus musculus with 6 samples.

Results

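Interferon-stimulated genes (ISGs) and interferon regulatory factors (IRFs) were followed in oesophageal squamous cell carcinomas of mice labelled as carrying or lacking the receptor tyrosine phosphatase gene Ptpro. A list of 50 gene symbols was used out of the 41253 symbols in the files. It held 30 members of a type I class, 16 of a gamma class and 4 other IRFs, and all 50 had enough reads to be tested. RNA had been sequenced from tumours of C57BL/6 mice, 3 labelled wild type (WT) and 3 labelled Ptpro-KO. All 6 mice had received the DNA-damaging carcinogen 4NQO in drinking water, at 100 mg/mL as labelled, from 6 weeks of age for 16 weeks, and were killed 12 weeks after that or earlier on marked weight loss. The design text gives an age of 34 weeks, whereas an age tag on the samples gives week 6. No mice without carcinogen were analysed here, the tissue was whole tumour, and the labels do not say which Ptpro exons the allele lacks. The libraries are called WT 1 to 3 and KO 1 to 3 below, by label.

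Interferons are secreted alarm proteins. Type I interferons signal through the receptor chains Ifnar1 and Ifnar2 to a complex that contains Stat2 and Irf9 and binds the interferon-stimulated response element (ISRE) in promoters of antiviral genes. Interferon gamma, made mainly by T and natural killer cells, signals through Ifngr1 and Ifngr2 to promoters with the gamma-activated site (GAS) and induces Irf1, the guanylate-binding proteins (GBPs) and the immunity-related GTPases (IRGs), which act on membranes around intracellular microbes. Many ISGs respond to both kinds of interferon, so the class names used here follow the more usual inducer and are not exclusive.

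The genotype gene went against the labels. Ptpro had 174, 9 and 67 reads in WT 1 to 3 and 1094, 1824 and 1921 in KO 1 to 3 (log2 fold change 3.97, SE 0.85, edgeR adjusted p = 0.0617), so every direction below is between libraries as labelled. Library totals ran from 25745240 to 39827467 reads. Of 17663 genes tested, 320 were called higher in KO (1.81%) and 405 lower (2.29%) at an adjusted p under 0.05 in edgeR's quasi-likelihood test. Summed CPM (CPM being a gene's reads relative to the scaled library total) of 10 squamous epithelial markers was 46220 to 54640 in WT and 15866 to 22993 in KO, with KO lower. None of the 10 was at 0 in any library, so RNA of squamous epithelial genes was present in all 6. Of the 10, 6 were called lower, against 2.29% of all genes. For 9 of them every KO library lay below every WT library, against 16.1% of all genes tested. Markers of simple epithelium (464 to 605 against 1583 to 2709), fibroblasts (559 to 2109 against 3420 to 5197) and macrophages (207 to 519 against 725 to 1392) did not overlap between the labels in their sums, with KO higher. The sums for neutrophils (1450 to 3249 against 240 to 1157) and plasmacytoid dendritic cells (519 to 576 against 108 to 264) did not overlap either, with KO lower. In the first nearly all reads were of S100a8 and S100a9, and in the second of Ly6d, genes that squamous epithelium also expresses. By reads from Xist and the Y chromosome, 1 WT and 2 KO mice were female. In bulk tumour RNA, a different number of cells of a type and a different amount of RNA per cell cannot be told apart.

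Interferon signals reach their target genes through short promoter sites, so a few promoters are shown before the values. In RefSeq windows of GRCm38.p6 from 250 bases before to 50 after each gene's start, 2 motifs were searched on both strands. They were the ISRE core, GAAA and GAAA with any 2 bases between, and the GAS core TTCNNNGAA, with overlapping matches counted separately. Windows matched by symbol were found for 37 of the 50 members, and 13 had none. Of these 37 genes, 59.5% held an ISRE core, against 3.99% of all 27025 genes with a window, and 35.1% held a GAS core, against 9.55%. In the gamma class 8 of 10 held the ISRE core and 7 of 10 the GAS core, and in the type I class the numbers were 13 and 5 of 23. A match describes these letters only and is not evidence of binding.

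The first stretches come from the gamma class, with matches in capitals, each written 5′ to 3′ on the strand of its gene. Irf1 and Irf8 held GAS cores and no ISRE core in these windows.
Irf1, chr11:53769904-53769953, plus strand: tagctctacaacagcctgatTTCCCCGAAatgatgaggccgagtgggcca
Irf8, chr8:120736178-120736227, plus strand: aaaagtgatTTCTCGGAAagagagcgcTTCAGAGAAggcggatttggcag
Gbp2 and Gbp7 carry the ISRE core on the opposite strand, so it reads TTTC, any 2 bases and TTTC here.
Gbp2, chr3:142620594-142620623, plus strand: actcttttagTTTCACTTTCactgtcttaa
Gbp7, chr3:142530221-142530300, plus strand: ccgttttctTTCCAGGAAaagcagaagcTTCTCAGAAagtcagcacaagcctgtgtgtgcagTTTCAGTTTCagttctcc
In 3 IRG genes, Tgtp1, Irgm2 and Igtp, a GAS core was followed directly by an ISRE core, with 2 bases between them in all 3.
Tgtp1, chr11:48992297-48992346, minus strand: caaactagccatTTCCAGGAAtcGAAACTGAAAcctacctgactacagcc
Irgm2, chr11:58214892-58214941, plus strand: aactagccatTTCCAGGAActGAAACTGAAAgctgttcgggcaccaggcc
Igtp, chr11:58199496-58199545, plus strand: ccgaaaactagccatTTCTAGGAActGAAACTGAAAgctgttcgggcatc
The type I class is shown by Isg15, with 3 overlapping ISRE cores, and by Oas1a and Oas1g, with 2 overlapping cores each and nearly the same surroundings.
Isg15, chr4:156200859-156200908, minus strand: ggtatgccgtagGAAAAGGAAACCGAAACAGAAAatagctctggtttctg
Oas1a, chr5:120907526-120907565, minus strand: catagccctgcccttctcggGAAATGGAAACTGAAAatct
Oas1g, chr5:120887614-120887653, minus strand: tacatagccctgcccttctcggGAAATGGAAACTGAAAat

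Across the 50 members, the gamma class lay higher in the libraries labelled KO while the type I class was mixed. All 16 gamma members had a positive log2 fold change, as 53.3% of all genes tested did, and in 14 of the 16 every KO library lay above every WT library. In the type I class 23 of 30 were positive. Separated in this way were 5 of the 30, a share near the 16.5% of all genes tested. Over all 50 members, 20 were separated with KO higher and 1 (Irf3) with KO lower, against 16.5% and 16.1% of all genes tested. The median difference in mean log2 CPM was 1.62 for the gamma class and 0.50 for the type I class, against 0.03 for all genes tested. Only Ido1 passed an adjusted p of 0.05 in edgeR (1 of 50 higher, 0 lower, against the 1.81% and 2.29% of all genes), and 15 members had an unadjusted p under 0.05 with KO higher and 0 with KO lower, against 13.7% and 11.3% of all genes. DESeq2 on the same counts called 13 members higher and 0 lower, against 9.52% and 8.37% of all genes. These were Ido1, Irf1, Irf2, Irf8, Gbp2, Gbp4, Gbp7, Gbp8, Gbp9, Iigp1, Tgtp1, Mx1 and Ddx58. The difference between the classes was not tested.

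**Figure D1:**
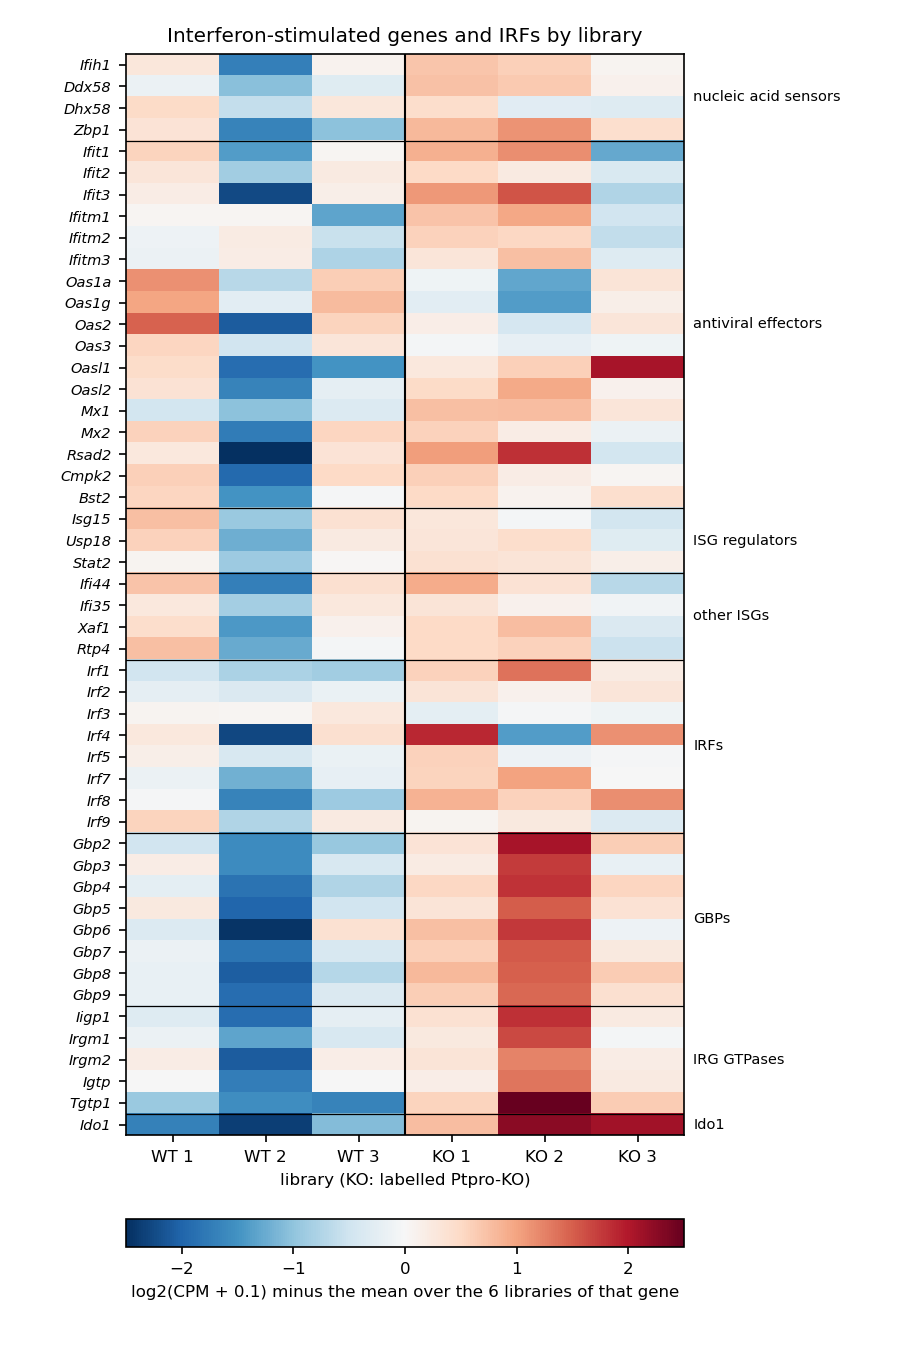
Expression of the 50 members (rows, grouped by role) in the 6 libraries (columns), as log2(CPM + 0.1) minus the gene's mean over the 6 libraries; blue is lower and red higher, and the colour scale ends at 2.5 in each direction. WT 2 is the lowest library for 42 of the 50 members, and KO 2 is the highest for all 8 GBPs and all 5 IRGs.

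The lowest library was mostly WT 2, and the highest differed between the classes. WT 2 was the lowest of the 6 libraries for 42 of 50 members, against 24.5% of all genes tested, and the members' median there was 0.37 times the mean level of the other WT libraries. KO 2 was the highest for 25 of 50 members, 15 of them in the gamma class, against 21.2% of all genes. Its gamma members had a median 2.24 times that of the other KO libraries. In the type I class WT 1 was the highest for 11 of 30 members, KO 2 for 10 and KO 1 for 8. Over all genes tested the shares were 12.3%, 21.2% and 17.1%. All 30 type I members were higher in WT 1 than the mean of the other WT libraries, with a median 2.15 times that level. That mean includes the low WT 2, so WT 1 stood less far above WT 3. Averaged over the type I members, log2 CPM was 3.59, 1.96 and 3.17 in WT 1 to 3. Without WT 2 the median difference was -0.01 for the type I class and 1.09 for the gamma class, and 35 of 50 members were positive, where 42 had been. WT 2 also had the lowest sums of macrophage (207 CPM), fibroblast (559) and skeletal muscle markers (61.6, against 8751 and 12603 in the other WT libraries). Their part in the low ISG values of WT 2 was not tested.

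**Figure D2:**
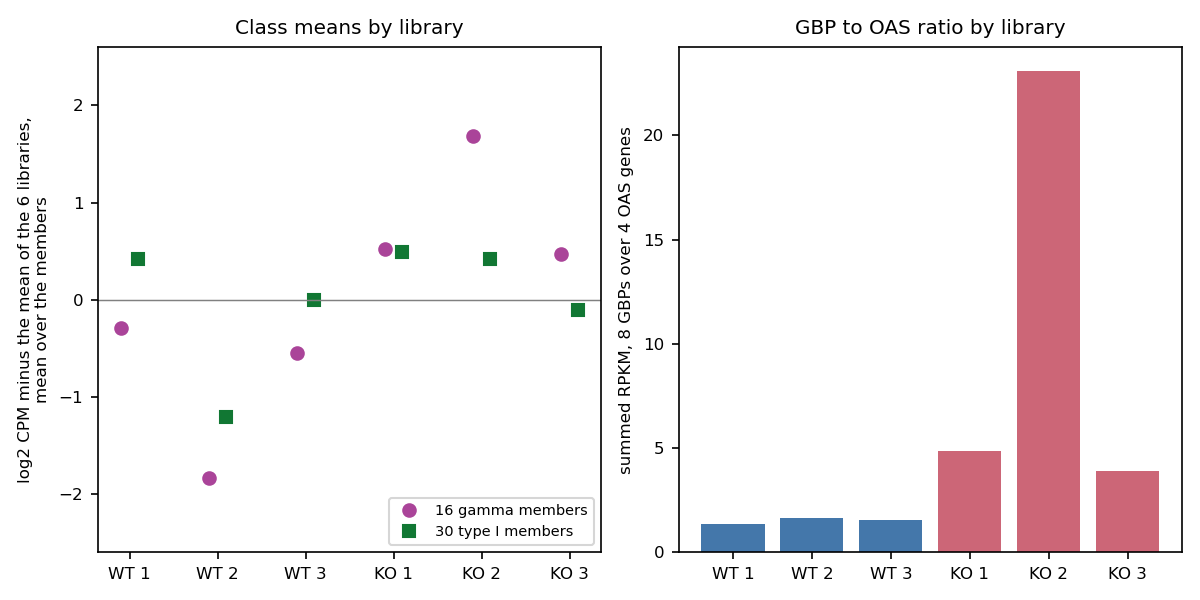
Left, log2 CPM minus the mean of the 6 libraries, averaged over the 16 gamma members (circles) and the 30 type I members (squares), for each library. Right, summed RPKM of the 8 GBPs over that of Oas1a, Oas1g, Oas2 and Oas3, which is between 1.37 and 1.63 in the WT libraries and 4.87, 23.1 and 3.92 in KO 1 to 3. Oasl1 and Oasl2 are not in the sum.

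A ratio of genes within a library does not depend on how libraries are scaled to each other. Per transcript length, in RPKM (reads relative to transcript length and library total), the 8 GBPs summed to 34.2, 13.0 and 28.5 in WT 1 to 3 and to 61.6, 175 and 63.8 in KO 1 to 3. The 4 OAS genes Oas1a, Oas1g, Oas2 and Oas3 summed to 25.0, 7.93 and 18.4 against 12.6, 7.59 and 16.3. GBP over OAS was therefore 1.37, 1.63 and 1.54 in WT and 4.87, 23.1 and 3.92 in KO. The ratios of the labels did not overlap, and WT 2, low in both sums, had a ratio near those of the other WT libraries. This pair of gene groups was chosen after the values were seen, and the ratio was not tested. The 4 OAS genes are those of the family with a negative log2 fold change. Oasl1 and Oasl2, with log2 fold changes of 1.81 and 0.85, were left out of the sum. Oasl1 alone had 14.5 RPKM in KO 3, where the 4 summed to 16.3, so the ratios depend on this choice.

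Levels per length put the IFITM genes first. Ifitm3 and Ifitm2, which encode membrane proteins that block entry of viruses, had the highest mean RPKM over the 6 libraries (315 and 192), followed by Gbp2 (33.2), Irf1 (28.7), Ifitm1 (28.1), Irf3 (27.2) and Irf9 (25.7). Ido1 (0.613), Mx2 (0.656) and Cmpk2 (0.713) were lowest. The SDs over 3 libraries were large beside the gaps among the third to seventh genes. Gbp2, for example, was 11.0 ± 3.69 RPKM in WT and 55.4 ± 39.4 in KO, and Irf3 27.7 ± 2.91 and 26.6 ± 3.56 (SD, n = 3 each).

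Ido1, on chromosome 8 at 24584136 to 24597009 (GRCm38), encodes the interferon-induced enzyme that opens the kynurenine pathway of tryptophan breakdown. It had 2, 0 and 4 reads in WT 1 to 3, or 0.0579, 0 and 0.142 CPM, and 0.774, 2.34 and 2.11 CPM in KO 1 to 3. All 3 KO libraries lay above all 3 WT libraries, and 3 reads in WT 2 would have been 0.119 CPM. Ido1 rose by 4.62 on the log2 scale (SE 0.86, edgeR adjusted p = 0.0466). It passed the filter on low counts only through the KO libraries, so a call in the other direction was not possible, and with so few WT reads the fitted fold depends on the prior count. The call was lost whenever any 1 library was left out (adjusted p from 0.0791 to 0.149) and with no filter on low counts (0.0566). Of the other kynurenine pathway genes, Kynu, which encodes kynureninase, had 0.695, 0.597 and 1.103 CPM in WT and 2.85, 1.52 and 2.13 in KO (log2 fold change 1.44, adjusted p = 0.0873). Ido2 and Tdo2 had too few reads to be tested.

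Among the IRFs, Irf1, the factor that carries the gamma response to secondary genes, had the smallest p. It had 33.5, 26.8 and 25.5 CPM in WT 1 to 3 and 69.6, 119 and 53.4 in KO 1 to 3. The groups did not overlap, WT 2 was within the range of the other WT libraries, and KO 2 was highest. Its log2 fold change was 1.50 (SE 0.31, edgeR adjusted p = 0.0590), and 1.10 without KO 2. Without KO 3 it passed the threshold (adjusted p = 0.0480), and over all settings tried its adjusted p ran from 0.000194 in DESeq2 to 0.218.

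Irf8, a factor of macrophages, dendritic cells and B cells, had 10.3, 3.23 and 5.59 CPM in WT and 19.4, 15.8 and 23.6 in KO, without overlap (log2 fold change 1.62, SE 0.44, edgeR adjusted p = 0.0968). Its highest library was KO 3 and its lowest KO library was KO 2, where Irf1 and the GBPs were highest. Irf4, of plasma cells and activated lymphocytes, ranged from 0.677 to 4.91 CPM in WT and was 13.8, 1.34 and 8.22 in KO 1 to 3, with overlap. B and plasma cell markers summed to 335, 8.63 and 79.3 CPM in the same KO libraries, and their part in the Irf4 values was not tested.

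Irf7, which amplifies type I interferon production, had 8.87, 4.22 and 8.50 CPM in WT and 14.5, 19.9 and 9.76 in KO, without overlap (log2 fold change 1.03, SE 0.38, adjusted p = 0.169). Irf2, a partner and antagonist of Irf1, varied little within a label, at 8.40, 7.65 and 8.79 against 12.3, 10.5 and 12.1 CPM (log2 fold change 0.50, SE 0.16, adjusted p = 0.123). Irf3, the constitutive factor activated by virus sensors, was the one member with KO below WT throughout, at 47.7, 47.2 and 54.6 against 38.7, 45.0 and 42.3 CPM. Its log2 fold change of -0.24 (SE 0.11, adjusted p = 0.244) was -0.09 when libraries were scaled by their totals alone. Irf5 and Irf9 overlapped between the labels, with log2 fold changes of 0.30 and -0.10, the latter 0.06 with library totals alone.

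The GBPs, large GTPases that gather on and break open pathogen vacuoles, had positive log2 fold changes in all 8 members, from 1.28 to 2.16. Among all genes tested 53.3% were positive. Separated with KO higher were 6 of the 8 GBPs, against 16.5% of all genes tested. Genes of this family sit in clusters on chromosomes 3 and 5. Gbp2, on chromosome 3 at 142620602 to 142638008, had 40.2, 18.8 and 29.3 CPM in WT 1 to 3 and 71.1, 236 and 86.1 in KO 1 to 3. The groups did not overlap, and KO 2 was far above the other KO libraries. The log2 fold change was 2.16 (SE 0.55, edgeR adjusted p = 0.0847), 1.42 without KO 2 and 1.92 without WT 2.

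KO 2 was also the highest library for the other chromosome 3 members. Gbp7 had 21.2, 6.53 and 17.6 CPM in WT and 35.6, 67.6 and 27.5 in KO (log2 fold change 1.53, SE 0.53, adjusted p = 0.147), without overlap. Gbp5, which takes part in inflammasome activation, had 7.82, 1.59 and 4.70 against 8.24, 19.0 and 8.40 CPM (1.34, SE 0.63, adjusted p = 0.260). The gap between WT 1 and KO 1 was small for Gbp5, and Gbp3 overlapped, with 16.3, 4.70 and 10.8 against 16.5, 48.3 and 12.5 CPM. Without KO 2 the log2 fold change of Gbp3 was 0.45, where it was 1.28 with all libraries.

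On chromosome 5, Gbp4, Gbp8 and Gbp9 were all separated, against 16.5% of all genes tested with KO higher. Gbp4 had 7.42, 2.39 and 5.19 CPM in WT and 12.7, 31.3 and 12.8 in KO (log2 fold change 1.92, SE 0.55, adjusted p = 0.106). Gbp8 had 3.91, 0.996 and 2.70 against 7.93, 12.8 and 6.97 CPM (1.86, SE 0.53, adjusted p = 0.105). Gbp9 had 9.04, 2.67 and 7.97 against 15.9, 28.0 and 13.6 CPM (1.55, SE 0.52, adjusted p = 0.139). For these 3 genes the fold change stayed above 1.1 on the log2 scale without WT 2 and without KO 2. Gbp6, of the same cluster, overlapped between the labels (log2 fold change 1.42, and 0.79 without KO 2). These genes are near copies in part: of the 50-base windows in their transcripts, 21.2% for Gbp8, 15.3% for Gbp6 and 12.8% for Gbp4 also occur in transcripts of other genes, and reads from such stretches could be counted under either.

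**Figure D3:**
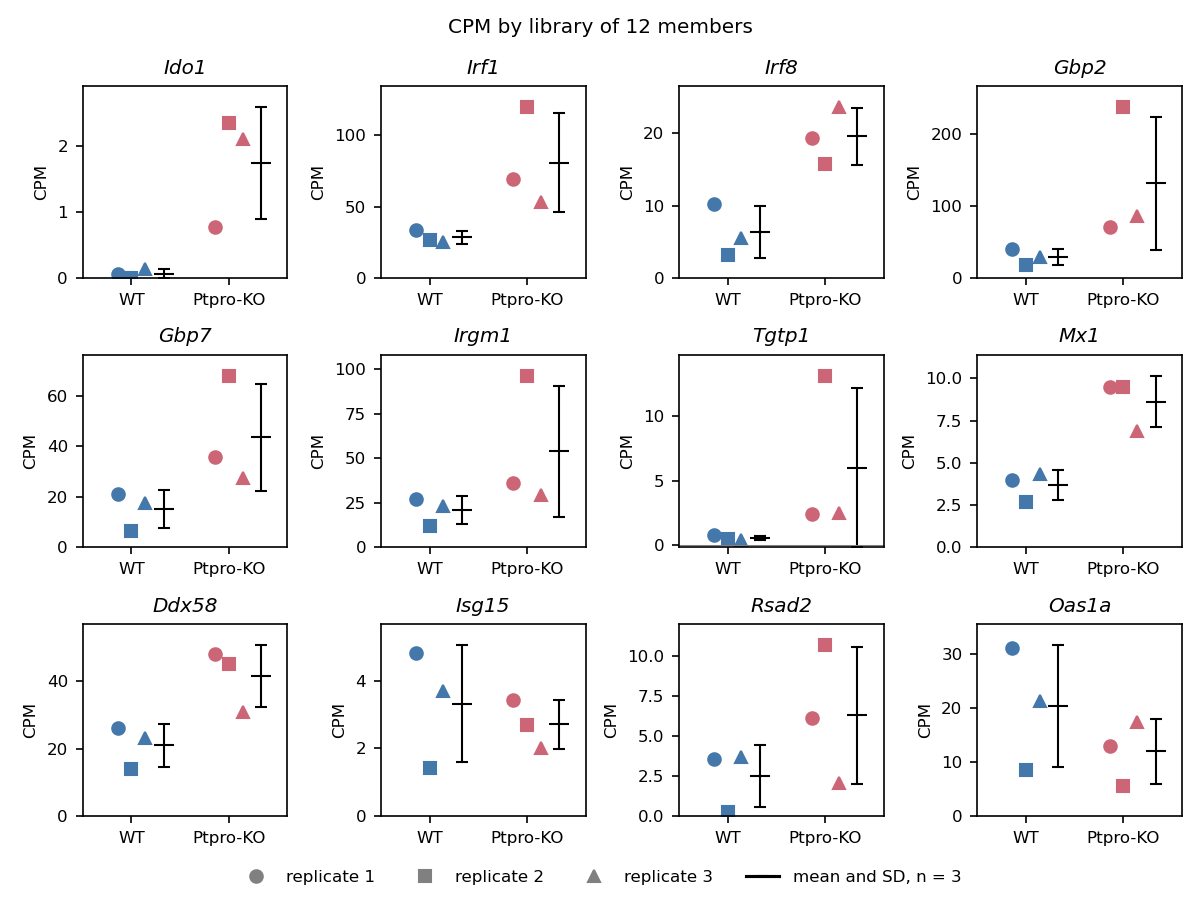
CPM of 12 members by library, WT in blue and Ptpro-KO in red, marker shape by replicate number, with the mean and SD of the 3 libraries in black; each panel has its own linear axis from 0, or from just below 0 where an SD bar crosses it. In Ido1, Irf1, Irf8, Gbp2, Gbp7, Irgm1, Tgtp1, Mx1 and Ddx58 every KO point lies above every WT point, whereas Isg15, Rsad2 and Oas1a overlap.

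All 5 IRGs were highest in KO 2 as well. Tgtp1, whose name stands for T cell-specific GTPase, had 0.782, 0.478 and 0.427 CPM in WT and 2.38, 13.1 and 2.52 in KO (log2 fold change 3.40, SE 0.82, edgeR adjusted p = 0.0778), and the log2 fold change was 2.10 without KO 2. Of its transcript windows 89.4% also occur in its neighbour Tgtp2, so the 2 genes are best read together, and their sum was 17.2, 5.54 and 13.7 CPM in WT and 34.4, 153 and 34.1 in KO. Neither Tgtp1 nor the sum overlapped between labels, and the sum in KO 2 exceeded the other KO sums more than 4-fold.

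Iigp1, an effector that attacks vacuole membranes, had 21.7, 7.21 and 23.2 CPM in WT and 35.5, 96.4 and 31.5 in KO (log2 fold change 1.65, SE 0.61, adjusted p = 0.169). Irgm1, a regulator of the other IRGs, had 27.3, 12.2 and 23.0 against 36.0, 95.8 and 29.5 CPM (1.37, SE 0.54, adjusted p = 0.184). Igtp, a second regulator, had 17.5, 5.26 and 17.6 against 19.7, 44.8 and 20.6 CPM (1.08, SE 0.55, adjusted p = 0.290). All 3 were separated, by narrow margins apart from KO 2, and without KO 2 the values were 0.95, 0.65 and 0.58. Irgm2, whose annotated span overlaps that of Igtp on chromosome 11, was separated too, with a log2 fold change of 0.94 (adjusted p = 0.406). The margin was minimal, at 18.58 CPM in KO 3 against 18.43 in WT 1. Its log2 fold change was 0.49 without WT 2 and 0.54 without KO 2. In all, 5 of 5 IRGs were separated with KO higher, against 16.5% of all genes tested.

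The high GBP and IRG values of KO 2 can be set beside its cell markers. Macrophage markers summed to 1392, 1136 and 725 CPM in KO 1 to 3, so KO 2 was not the highest. Of these 11 markers 9 were separated with KO higher and 1 with KO lower, against 16.5% and 16.1% of all genes tested. The T and natural killer cell markers summed to 20.02, 12.2 and 17.6 CPM in KO 1 to 3 and to 10.2 to 18.2 in WT. B and plasma cell markers were at 8.63 CPM in KO 2, within the WT range of 3.62 to 44.4, and plasmacytoid dendritic markers summed to 204, 264 and 108 CPM in KO 1 to 3, of which Ly6d gave 166, 249 and 98.0 and the defining gene Siglech 0.664, 0.352 and 0.546. Simple epithelial (2709 CPM) and fibroblast (5197 CPM) marker sums were highest in KO 2. Neutrophil markers summed to 531, 1157 and 240 CPM in KO 1 to 3, and dendritic cell markers to 78.5, 18.1 and 53.1 CPM. The part of any of these cell types in the values of KO 2, or in the separation of the labels, was not tested.

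Among the type I members, 3 of the 4 nucleic acid sensors had a positive log2 fold change, against 53.3% of all genes tested. Separated with KO higher were 2 of them, against 16.5% of all genes, and WT 2 was the lowest library for all 4. Ddx58, which encodes RIG-I, the sensor of viral RNA ends, had 25.9, 13.8 and 23.1 CPM in WT and 47.9, 45.0 and 30.8 in KO, without overlap (log2 fold change 0.98, SE 0.28, edgeR adjusted p = 0.107). Zbp1, a sensor of left-handed nucleic acid, was separated at 7.45, 1.75 and 2.81 against 10.3, 12.8 and 7.88 CPM (1.36, SE 0.56, adjusted p = 0.200). Ifih1, which encodes the long RNA sensor MDA5, had 31.6, 7.81 and 27.4 against 41.8, 39.4 and 27.1 CPM and overlapped (0.70, SE 0.51, adjusted p = 0.440). The related regulator Dhx58 had a log2 fold change of -0.13, which was 0.02 with library totals alone. Without WT 2 the log2 fold changes were 0.75 for Ddx58, 1.00 for Zbp1, 0.29 for Ifih1 and -0.40 for Dhx58.

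Of the 17 antiviral effectors, Mx1 was the one separated between labels, a share below the 16.5% of all genes separated with KO higher. This GTPase gene, which is defective in many laboratory strains, C57BL/6 among them, had 4.00, 2.67 and 4.34 CPM in WT and 9.46, 9.49 and 6.87 in KO. The spread within each label was small, and the log2 fold change was 1.23 (SE 0.26, edgeR adjusted p = 0.0616), between 1.04 and 1.37 when any 1 library was left out. It passed the threshold in DESeq2 (0.000452) and with library totals alone. Mx2 overlapped, with a log2 fold change of 0.12, which was -0.35 without WT 2.

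The OAS genes, whose products make the oligoadenylate that activates RNase L, did not follow the GBPs. Oas1a had 31.0, 8.56 and 21.4 CPM in WT and 13.0, 5.63 and 17.4 in KO, and Oas1g had 4.40, 1.79 and 3.88 against 1.80, 0.773 and 2.45. KO 2, the highest library for every GBP and IRG, was the lowest of the 6 for both. On the log2 scale Oas1a differed by -0.75 (SE 0.58, adjusted p = 0.474) and Oas1g by -0.999 (SE 0.54, adjusted p = 0.310). These genes share 57.6% and 54.1% of their windows with each other, and the sum of the pair was 35.4, 10.4 and 25.3 CPM in WT and 14.8, 6.40 and 19.9 in KO, with overlap through WT 2.

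Oas2 and Oas3 overlapped as well, at log2 fold changes of -0.54 and -0.29, and Oas2 was at 0.28 without WT 1. The OAS-like genes had positive values. Oasl1, which lacks that enzyme activity, had 9.10, 1.67 and 2.28 CPM in WT and 7.88, 10.03 and 27.8 in KO (log2 fold change 1.81, SE 0.82, adjusted p = 0.241). Its highest library was KO 3, not KO 2, and WT 1 lay above KO 1. For Oasl2 the log2 fold change was 0.85.

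Other effectors overlapped between the labels throughout. Ifitm3 had 181, 228 and 117 CPM in WT and 245, 337 and 160 in KO (log2 fold change 0.50, SE 0.35, adjusted p = 0.422), and Ifitm2 had 104, 131 and 77.0 against 171, 162 and 74.1 (0.38, SE 0.36, adjusted p = 0.554). The IFITM genes did not share the low values of WT 2, which was the highest WT library for both. Of the transcript windows of Ifitm2, 48.5% occur in other genes. The 3 IFIT genes, which bind foreign RNA caps and ends, had log2 fold changes of 0.64 (Ifit1), 0.19 (Ifit2) and 1.25 (Ifit3), and all had their lowest WT value in WT 2 and their lowest KO value in KO 3. For Ifit3, 51.2% of the transcript windows also occur in the gene I830012O16Rik. Rsad2, encoding viperin, was at 1.32, and its neighbour Cmpk2 at 0.22, with Bst2, encoding the virus tether tetherin, at 0.47. Without WT 2 these were 0.79, -0.26 and 0.07, and Rsad2 was at 0.71 without KO 2. Ifit2 was at -0.11 without WT 2.

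Of the 3 regulators of the ISG response, Stat2 alone was separated, with KO higher, against 16.5% of all genes tested. Isg15, a ubiquitin-like modifier, had 4.81, 1.43 and 3.70 CPM in WT and 3.43, 2.70 and 2.003 in KO (log2 fold change -0.29, SE 0.48, edgeR adjusted p = 0.752), a sign that turned without WT 1. Usp18, which removes Isg15 from proteins and limits receptor signalling, had 8.78, 2.43 and 6.80 against 7.16, 7.92 and 4.68 CPM (0.14, SE 0.49). Stat2, of the type I complex, had 24.4, 12.3 and 23.9 against 30.3, 29.2 and 25.7 CPM (0.50, SE 0.27, adjusted p = 0.322), with WT 1 and WT 3 close to KO 3.

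Of the 4 remaining ISGs 0 were separated, against 16.5% of all genes tested with KO higher and 16.1% with KO lower. Ifi35 had 22.3, 10.2 and 22.2 against 23.0, 19.8 and 17.3 CPM, and Rtp4 had 10.5, 2.51 and 5.94 against 8.76, 9.21 and 4.21. Xaf1, a pro-apoptotic ISG, had 9.68, 2.55 and 7.65 against 10.1, 12.2 and 5.49 CPM. In all 3, and in Ifi44, WT 2 was the lowest library, and without it the log2 fold changes were -0.15 for Ifi35, -0.15 for Rtp4, -0.24 for Ifi44 and 0.09 for Xaf1.

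**Figure D4:**
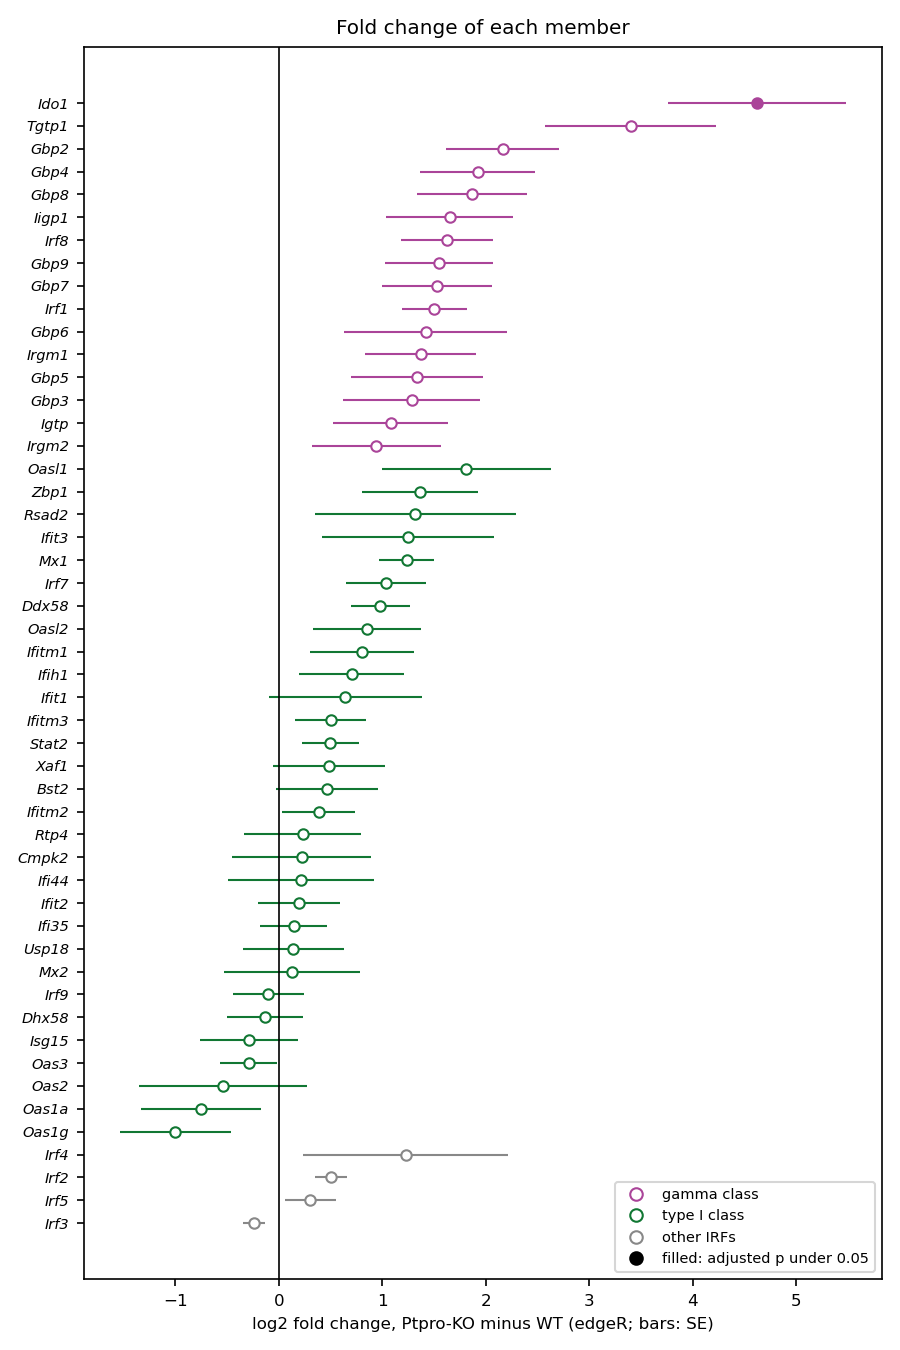
Log2 fold change of each member, Ptpro-KO minus WT, with its standard error (edgeR), ordered within the gamma class, the type I class and the other IRFs; the filled point (Ido1) has an adjusted p under 0.05. All 16 gamma members lie right of 0, and the lowest values are those of Oas1g and Oas1a.

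The ligands of the pathway were at the limit of detection. Ifng had 3, 4 and 2 reads in WT 1 to 3 and 10, 11 and 9 in KO 1 to 3, without overlap, too few for the filter. Fitted without the filter, its log2 fold change was 1.27 (SE 0.50, edgeR adjusted p = 0.250). Ifnb1 had 0 reads in the WT libraries together and 1 in the KO libraries, and the 14 interferon alpha genes (Ifnab included) together had 11 and 5. Over the 20 interferon genes other than Ifng there were 19 reads in WT and 24 in KO. A difference in type I ligands was not detectable at this depth.

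The receptors and kinases held both further calls. Ifngr1, the ligand-binding chain of the gamma receptor, rose from 68.4, 41.4 and 45.6 CPM in WT to 107, 124 and 103 in KO (log2 fold change 1.11, SE 0.21, edgeR adjusted p = 0.0492). Jak2, the kinase attached to its partner chain, rose from 99.8, 87.0 and 75.6 to 155, 143 and 135 CPM (0.73, SE 0.13, adjusted p = 0.0434). The labels did not overlap for either gene, and both passed in DESeq2, but leaving out 1 library ended the call of Jak2 in every case (adjusted p up to 0.162) and of Ifngr1 in 5 of 6 (up to 0.195). Ifngr2 and the type I chains Ifnar1 and Ifnar2 were separated as well, with smaller log2 fold changes of 0.55, 0.27 and 0.47. Of the 6 receptor genes 1 was called and 4 were separated, and of 5 JAK and STAT genes 1 was called, against 1.81% of all genes called higher and 16.5% separated with KO higher.

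None of the 8 negative regulators was called, against 1.81% of all genes higher and 2.29% lower. The smallest p belonged to Trim24, a brake on interferon signalling in some tissues, at 39.8, 42.9 and 48.8 against 60.8, 66.4 and 95.8 CPM (log2 fold change 0.77, adjusted p = 0.0909), and to the phosphatase Ptpn6, at 20.4, 13.7 and 15.4 against 34.5, 22.0 and 30.5 CPM (0.82, adjusted p = 0.103). Socs1, induced by interferon gamma, overlapped, with a log2 fold change of -0.03. Among 14 genes of nucleic acid sensing 0 were called. Tmem173, encoding the adaptor STING, had 6.29, 1.95 and 3.13 CPM in WT and 20.1, 8.84 and 11.8 in KO (1.84, adjusted p = 0.105), and Tlr3 had 5.77, 2.95 and 5.94 against 8.24, 12.6 and 8.92 CPM (1.02, adjusted p = 0.135). Mb21d1, which encodes cGAS, the enzyme upstream of STING, went the other way, at 9.76, 7.41 and 9.14 against 4.59, 5.93 and 6.48 CPM (log2 fold change -0.62, adjusted p = 0.149).

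Wider target lists held no edgeR call, where 1.81% of all genes were called higher and 2.29% lower. Of 22 further gamma targets 0 were called by edgeR and 7 were separated with KO higher, with a median log2 CPM difference of 0.87. Of 27 further type I targets tested 0 were called. Over all 28 in the list, 4 were separated with KO higher, with a median of 0.50. Over all genes tested 16.5% were separated with KO higher, so the type I count was near that background. The smallest p of the gamma list were those of Psmb10, an immunoproteasome subunit, at 15.2, 9.24 and 12.1 against 28.6, 22.4 and 23.4 CPM (log2 fold change 1.03, adjusted p = 0.0605), and of Tgtp2 and Ifi47, an IRG. B2m, Tap1, Tap2, Tapbp, Ciita and Nlrc5, all of antigen presentation, overlapped between the labels. B2m, the light chain of class I molecules, was at 573, 230 and 423 against 413, 655 and 350 CPM, and Nlrc5, a driver of class I genes, at a log2 fold change of -0.49. In the type I list the smallest p were those of Lgals3bp, at 18.3, 4.70 and 10.2 against 40.4, 38.8 and 62.4 CPM (2.10, adjusted p = 0.0777), and of Gm14446, an IFIT relative, at 1.85, 0.239 and 0.356 against 9.07, 98.3 and 6.48 CPM (5.50, SE 1.49, adjusted p = 0.0966).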

How the data were processed

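The submitters' processing notes name Bowtie 0.12.2 as a tool and mm10 as the genome build. Per sample, the authors deposited read counts per transcript, which are whole numbers, and an RPKM column, in which each count is divided by transcript length and by the library's summed counts. The authors also deposited a table of FPKM values per gene, made by a tool that the sources do not name; 2 further columns of per-sample values in it were not used. How reads shared between isoforms, copies or strands were counted is not given either.

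Counts and RPKM were summed per symbol over 100249 transcripts. Genes passing filterByExpr (10 counts scaled by library size in 3 libraries, 15 in total; 17663 genes) were scaled by TMM and tested by the edgeR 4.0.16 quasi-likelihood test in R 4.3.3, KO minus WT, without covariates, with Benjamini-Hochberg adjustment over all genes at 0.05. SE is the log2 fold change over the root of F. List medians use log2 CPM with a prior count of 2. "Separated" means that all 3 libraries of a label lie beyond all 3 of the other. Positions and 50-base windows come from GENCODE M21, promoters from RefSeq. The protein comparison of the design was replaced by transcript windows, since no protein table was used here. Libraries of a label differed beyond sampling noise (chi-square per degree of freedom 66.9 to 307).

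Alternatives were DESeq2 1.42.0, limma 3.58.1 (voom, and log2(FPKM + 1) or + 0.1 for genes with at least 0.5 FPKM in 3 libraries), other scalings and filters, a sex term, a replicate block and leaving out each library. On simulated counts of the comparison (17421 genes tested), the test found 0 of the 100 that had been set to a 2-fold change, 50 of the 100 set to 4-fold, and 2 false calls.

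The members and lists were chosen with earlier results of these data known. Library values were given for members with an adjusted p under 0.05, the 3 with smallest p and the 2 with highest RPKM of each role, and separated members with a log2 fold change of at least 1; for pathway lists, for called genes and the 2 with smallest p. Other names were chosen after their values were seen. Of 208 list symbols, 203 were found as written, 4 by an older symbol and 1 not at all. The design text gives separate mice. The results of some list genes are not reported here.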

Additional observations from a re-analysis of the deposited data

How the results depend on the processing

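The gamma class kept a positive median in every setting tried (1.09 to 1.94 when 1 library was left out), and all 16 of its members kept a positive sign. The type I median ran from -0.01 without WT 2 to 0.87. The number of members called higher, 1 in the report, was 13 with DESeq2, 3 with library totals alone, and 0 with no filter on low counts, with at least 1 CPM in 3 libraries (where Ido1 was not tested), with limma on log2(FPKM + 1) and with a sex term. It was 0 to 1 when 1 library was left out, the 1 being Irf1 without KO 3. No member was called lower in any setting. Over all genes, the calls were 1682 higher and 1478 lower with DESeq2, 630 and 294 with library totals alone, and 64 and 122 with a sex term. Leaving out 1 library gave 0 to 253 higher and 0 to 243 lower; both were 0 without WT 2, WT 3 or KO 2, where edgeR gave 1871, 1584 and 2412 genes higher and 1498, 1494 and 1951 lower at an unadjusted p under 0.05. The cause was not tested.

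With the replicate number as a block, 133 genes were higher and 104 lower, and 0 members. Deviations of same-numbered libraries correlated at 0.539, 0.0805 and -0.243, so the numbers were not taken to pair the mice. The library names of WT 1 and KO 1 begin with LB and those of the others with B, and what this marks is not given. When 1 library was left out, signs turned for 7 members without WT 2, 4 without WT 1, 3 without KO 1, 1 each without KO 2 and KO 3, and 0 without WT 3. The ranges were -0.65 to 0.074 for Isg15 (above 0 without WT 1), -0.24 to 0.51 for Usp18 (below 0 without WT 2 and, at -0.019, without KO 2), and -0.15 to 0.31 for Ifi35 and -0.15 to 0.80 for Rtp4 (both below 0 without WT 2). Without WT 2, Ifit2 (-0.11), Mx2 (-0.35), Cmpk2 (-0.26) and Ifi44 (-0.24) also turned. Without WT 1 Dhx58 (0.077), Oas2 (0.28) and Irf9 (0.18) did, without KO 1 Ifit2 (-0.045), Mx2 (-0.13) and Ifi44 (-0.23), and without KO 3 Irf9 (0.037). The median over all genes with reads, 0.08, was 0.18 with library totals alone. With 3 mice a label, the test recovered 0 of 100 simulated 2-fold changes, although Jak2 was called in the data at a log2 fold change of 0.73. The simulated counts held no deviations shared by many genes of a library, and only the genes set to a 2-fold or 4-fold change differed. In the data 13.7% of genes tested had an unadjusted edgeR p under 0.05 with KO higher and 11.3% with KO lower. An adjusted p depends on how many genes differ, so the simulated counts set no limit for single genes here.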
